A study of Mus musculus with 2 samples.

Results

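The genes described here are the mouse translation initiation and elongation factors, read in 2 RNA libraries of MLL/AF9 leukaemia cells. They were chosen by name from the deposited table: every protein-coding gene whose symbol starts with Eif and a digit or with Eef, plus Pabpc1 and Tpt1, leaving out symbols that start with Eif2ak or Eif2s3. The rule found 64 genes of the 45318 in the table. Of these, 60 had a mean of at least 1 CPM (counts scaled to sequencing depth and normalised between libraries) and were measured.

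MLL/AF9 is a fusion oncogene of acute myeloid leukaemia, and the cells carried a GFP reporter by which they were sorted from the marrow of leukaemic C57Bl/6 mice. One group of mice had received vehicle and the other brequinar, an inhibitor of dihydroorotate dehydrogenase in de novo pyrimidine synthesis. Each group is 1 library (47935476 gene counts for vehicle, 47950714 for brequinar), so differences could not be checked against replicates and no p-values are given. The sources used here give no dose, treatment time, animal age or number of mice per library.

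Initiation factors bring the small ribosomal subunit, the initiator tRNA and the capped mRNA together at a start codon. Elongation factors then deliver each aminoacyl-tRNA and move the ribosome along. The mRNAs of several of these factors, like those of ribosomal proteins, begin with a cap-adjacent run of pyrimidines, the 5′ terminal oligopyrimidine (5′ TOP) motif, through which mTORC1 and Larp1 control their translation and stability. A list of 11 such members, taken from general knowledge, was set beside the rest: Eef1a1, Eef1b2, Eef1d, Eef1g, Eef2, Eif3e, Eif3f, Eif3h, Eif4b, Pabpc1 and Tpt1.

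The annotated starts of a few members show what such an opening looks like and where the annotation does not place one. The sequences come from RefSeq (GRCm38.p6), run from 8 bases before the annotated start to 22 after it on the transcribed strand, and carry in capitals every stretch of at least 5 letters that are each C or T. The first 4 are on the 5′ TOP list and hold a stretch, Tpt1 and Eef1b2 are on it and hold none here, Eif3l and Eif2b5 hold a stretch without being on it, and Eif2s1 is shown as a member with neither.
Eef1a1: ccgCCCTCTTCCCgagggtgggggagaacg
Eif3f: taggCTCTCTCTCTTTCTCggcaagatggC
Eef2: ggccgggcgttgacgtcagcggTCTCTTCC
Eif4b: CCgtcggacgccgcgccaCCCCCTCgcgct
Tpt1: ctgacgacagttccgggggagccgcggacg
Eef1b2: gcagttccgccggaagtagccgaggccttg
Eif3l: gTTCTTCTTCCgCTCTCTCCCacgggCTTC
Eif2b5: CTTTCTCTCCCTgcaactacaCCTTCgcgt
Eif2s1: ttgggcgaagcgcacgctgaggagcttcgg

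These windows lie at chr9:78481703-78481732 (minus strand) for Eef1a1, chr7:108934407-108934436 for Eif3f, chr10:81176623-81176652 for Eef2, chr15:102073765-102073794 for Eif4b and chr14:75845248-75845277 for Tpt1. Those of the others lie at chr1:63176823-63176852 for Eef1b2, chr15:79075215-79075244 for Eif3l, chr16:20498809-20498838 for Eif2b5 and chr12:78862064-78862093 for Eif2s1, all on the plus strand like the preceding 4. In Eef1a1 the stretch of 10 letters opens 5 bases before the annotated start. The stretch of Eif3f, 15 letters long, opens 4 bases before it, and that of Eef2 opens only at base 15 after it. Where transcription starts in these cells was not measured.

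The factors on the 5′ TOP list stood lower in the brequinar library as a group, by less than 2-fold, while most others lay close to their vehicle level. All 11 had a log2 ratio (brequinar over vehicle) below 0, from -0.91 for Pabpc1 to -0.25 for Eef1d, with a median of -0.66. The 49 other measured members had a median of -0.08, with 34 below 0 and 15 above, and all 11504 measured genes a median of 0.00, with 49.9% below 0. The summed level of the 11 was 22590 CPM in the vehicle library and 14359 CPM in the brequinar library, 1.57-fold less, whereas the 49 others summed to 12172 and 11803 CPM. The list rests on general knowledge, and its median differed from that of the others by -0.58. Grouped instead by a pyrimidine stretch near the annotated start, the 46 measured members with a RefSeq start differed by -0.053. Fewer cells of a type and less RNA per cell cannot be told apart in such bulk libraries.

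No measured member passed 2-fold, the size used for a call, in either direction. Over all measured genes 4.40% were at least 2-fold lower and 6.45% at least 2-fold higher. At 1.5-fold, 8 of the 60 members were lower and none higher, against 12.7% of all genes in each direction, so the share of all members (13.3%) lay near the background. The 8 were Pabpc1, Eef1b2, Eef1g, Eif3f, Eef1a1 and Eif4b, which are 6 of the 11 on the 5′ TOP list, and Eef2kmt and Eif5a2, which are 2 of the 49 others (4.08%). With 1 library per group no test stands behind these counts.

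**Figure D1:**
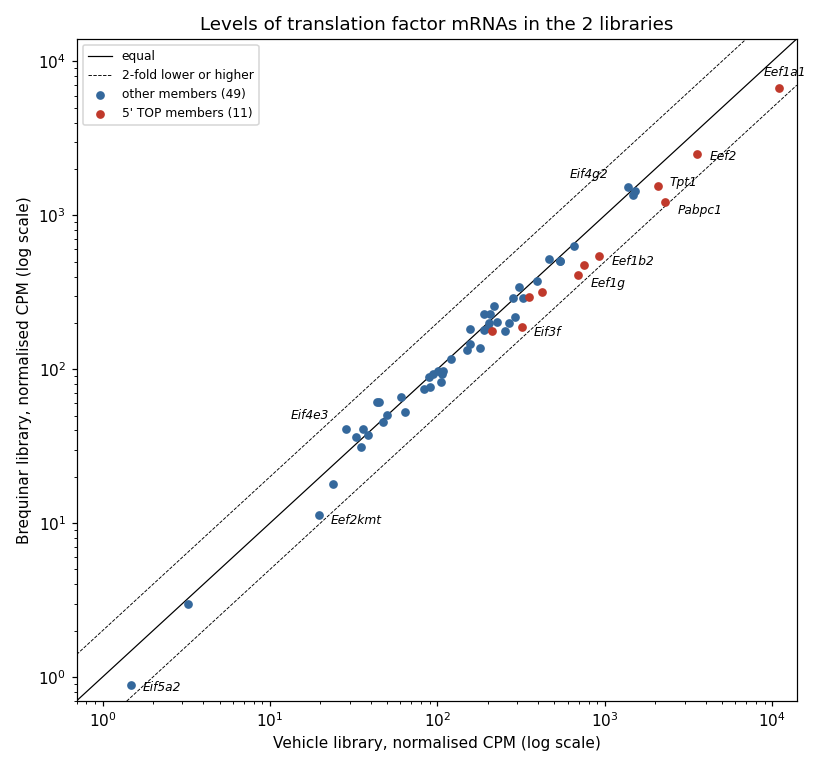
Normalised CPM of the 60 measured members in the vehicle library (x axis) and the brequinar library (y axis), both on log scales, with 1 point per gene, red for the 5′ TOP list and blue for the others. The solid line marks equal levels and the dashed lines 2-fold. All 11 red points lie under the solid line and none of the 60 points lies beyond a dashed one.

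The 2 sets overlapped. Of the 11 lowest ratios among the 60 members, 7 belonged to the list and 4 to other genes, namely Eef2kmt, Eif5a2, Eif3i and Eif3k. Of the others, 9 lay at or below Eef1d, the highest of the list, and 2 lay below the list's median. Pabpc1 alone was lower than every other member, and each of the 11 lay under the median of the others.

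Cytosolic ribosomal protein genes, whose mRNAs are the main class with this opening, stood at similar ratios. The 81 measured genes with Rps or Rpl symbols, and Fau among them, had a median log2 ratio of -0.67, with 78 below 0, and their summed level was 105590 and 67048 CPM, 1.57-fold less. That they were lower was known before the factors were chosen. Of the other mRNAs of this class that encode neither ribosomal proteins nor factors, Rack1, a scaffold on the small subunit, stood at 2373 CPM in vehicle and 1642 CPM in brequinar. Vim, which encodes the filament protein vimentin, went the other way (513 and 841 CPM), and of the 4 genes it was the one above 0.

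**Figure D2:**
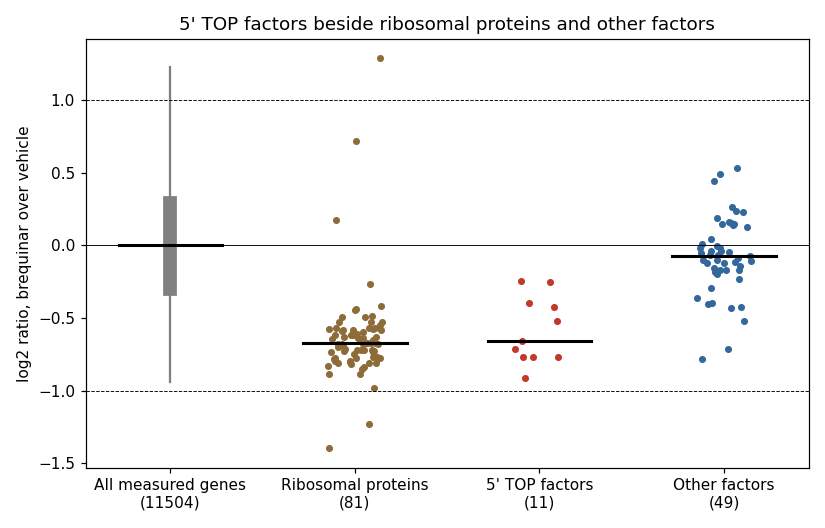
The log2 ratio of brequinar over vehicle (y axis) for all 11504 measured genes, ribosomal protein genes, 5′ TOP factors and other factors. Points are genes, black bars are medians, and for all genes the thick and thin grey bars span the central 50% and 90%. The medians of the ribosomal protein genes (-0.67) and the 5′ TOP factors (-0.66) lie at about the same height, below that of the other factors (-0.08).

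Among the elongation factors, eEF1A carries aminoacyl-tRNA to the ribosome, the eEF1B subunits recharge it with GTP, and eEF2 drives translocation. Eef1a1 (ENSMUSG00000037742.11, chromosome 9, 78478449 to 78489151, minus strand, GRCm38) was the most abundant member, at 10994 CPM in the vehicle library and 6704 CPM in the brequinar library. It was 1.64-fold lower (exact 95% interval 1.63 to 1.65, which covers counting error only). It alone held 1.13% of all gene counts in vehicle and 0.649% in brequinar.

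The eEF1B subunits differed in size of ratio. Eef1b2, the nucleotide exchange subunit eEF1B alpha, stood at 926 and 544 CPM in the vehicle and brequinar libraries and was 1.70-fold lower (interval 1.67 to 1.73). Eef1g, the structural subunit, stood at 694 and 408 CPM, also 1.70-fold lower (interval 1.67 to 1.73). Eef1d, a second exchange subunit, differed least of the list (211 and 178 CPM, 1.19-fold lower, interval 1.15 to 1.22).

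Set per kilobase of exon, the proportions of Eef1a1, Eef1b2 and Eef1g to each other were close in both libraries, and that of Eef1d was not. The level of Eef1a1 was 12.1 times that of Eef1b2 in vehicle and 12.5 times in brequinar, 16.5 and 17.1 times that of Eef1g, and 136 and 98.3 times that of Eef1d. Eef1a1 made 86.9% of the summed CPM per kilobase of the 4 genes in vehicle and 87.1% in brequinar, Eef1b2 7.20% and 6.96%, Eef1g 5.26% and 5.09%, and Eef1d 0.640% and 0.886%. Exon length here is the union of all annotated exons, which lowers the value of genes with many isoforms.

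Eef2 (chromosome 10, 81176631 to 81182498) stood at 3573 CPM in vehicle and 2489 CPM in brequinar and was 1.44-fold lower (interval 1.43 to 1.45). Eefsec, which delivers selenocysteine tRNA and is not on the 5′ TOP list, stood at 47.3 and 45.2 CPM, with a log2 ratio of -0.07 whose interval spans no difference (ratio 0.901 to 1.01). Eef1a2, the muscle and neuron form of eEF1A, had no count in either library, which allows up to 0.0606 CPM in vehicle and 0.0646 CPM in brequinar (3 counts).

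Pabpc1 (ENSMUSG00000022283.11, chromosome 15, 36595661 to 36609668, minus strand), the cytoplasmic poly(A)-binding protein that joins the mRNA tail to eIF4G, had the lowest ratio of all members. Its level was 2288 CPM in the vehicle library and 1218 CPM in the brequinar library, 1.88-fold lower (interval 1.86 to 1.90). With scaling by total counts it was the 1 member to reach 2-fold. Tpt1 (chromosome 14), which encodes the translationally controlled tumour protein, stood at 2066 and 1541 CPM, 1.34-fold lower (interval 1.33 to 1.35).

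The eIF4 group binds the cap and unwinds the leader of the mRNA. It split around 0, with 6 of 11 measured members below and 5 above, and a median log2 ratio of -0.02. Its 1 gene on the 5′ TOP list, Eif4b, the cofactor of the helicase eIF4A, stood apart at 748 CPM in vehicle and 475 CPM in brequinar (1.57-fold lower, interval 1.55 to 1.60). The helicase genes themselves lay near their vehicle level, Eif4a1 at 1463 and 1349 CPM, Eif4a2 at 156 and 145 CPM, and Eif4a3, the helicase of the exon junction complex, at 203 and 199.8 CPM.

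The cap-binding proteins differed among themselves. Eif4e, the main one, stood at 157 CPM in vehicle and 184 CPM in brequinar, Eif4e2, a repressive homologue, at 90.4 and 77.0 CPM, and Eif4e3 at 28.5 and 41.1 CPM. Eif4e3 had the highest ratio of all members, 1.44-fold higher (interval 1.35 to 1.55), and shares 14.8% of its exon bases with Gm20696, which had 12 counts in both libraries together. Per kilobase, Eif4e3 made 22.9% of the 3 genes' sum in vehicle and 28.6% in brequinar, and Eif4e2 24.4% and 18.0%.

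Of the scaffolds, Eif4g1 stood at 540 and 503 CPM, Eif4g2, which lacks the eIF4E-binding site, at 1375 and 1520 CPM, and Eif4g3 at 205 and 227 CPM. The first was lower and the other two higher in brequinar, each by less than 1.5-fold. Eif4h, a second helicase cofactor with a role like that of eIF4B, stood at 462 CPM in vehicle and 517 CPM in brequinar, so that both cofactors lay on opposite sides of 0 (log2 ratios 0.16 and -0.66). Eif4e1b had no count in either library.

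The products of the Eif4ebp genes hold eIF4E away from eIF4G until mTORC1 phosphorylates them. The 3 measured genes of eIF4E-binding proteins lay close to their vehicle level. Eif4ebp1 stood at 38.4 and 37.4 CPM, Eif4ebp2 at 107 and 93.3 CPM, and Eif4enif1, the shuttling protein 4E-T, at 89.4 and 89.1 CPM. Eif4ebp3 had 4 counts in vehicle and 1 in brequinar, too few to place it (3.76-fold lower, interval 0.372 to 185), and 67.3% of its exon bases lie in another annotated gene.

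**Figure D3:**
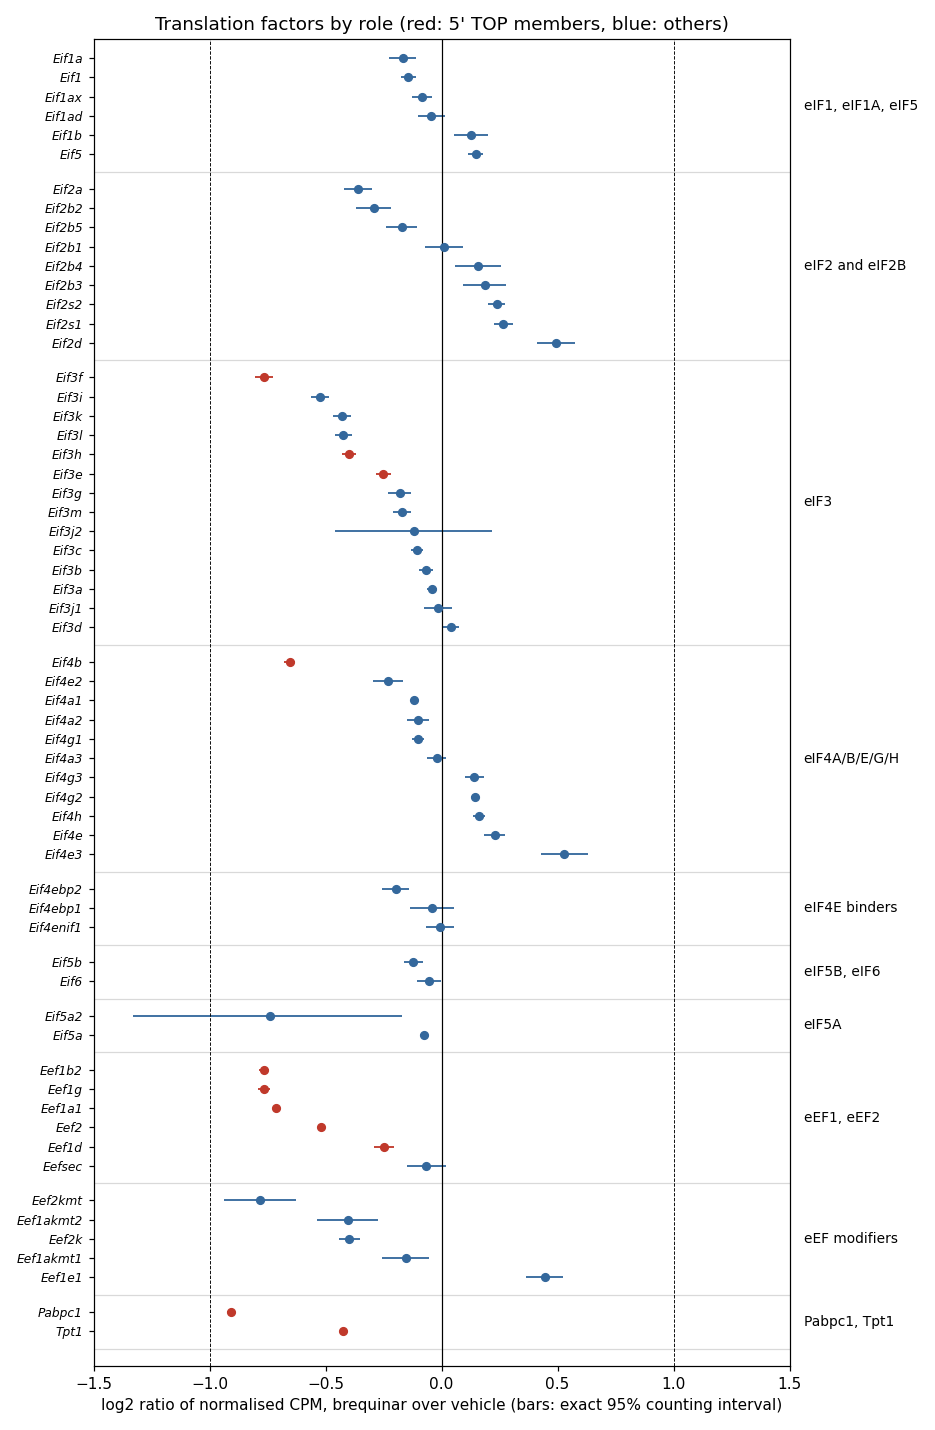
The log2 ratio of normalised CPM, brequinar over vehicle, without a prior count (x axis), for each of the 60 measured members (y axis), grouped by role. Points are single genes with exact 95% counting intervals, red for the 5′ TOP list. All red points lie left of 0, the lowest being Pabpc1, and all intervals except that of Eif5a2 lie between the dashed 2-fold lines.

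eIF3 is the large scaffold that holds the small subunit, and its 14 measured genes had a median log2 ratio of -0.18, with 13 below 0 (14 with scaling by total counts, with or without the 50 most abundant genes). The 3 on the 5′ TOP list differed from each other. Eif3f stood at 319 CPM in vehicle and 187 CPM in brequinar (1.70-fold lower, interval 1.66 to 1.75), Eif3h at 419 and 318 CPM (1.32-fold lower), and Eif3e at 352 and 296 CPM (1.19-fold lower).

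Of the 11 eIF3 genes off the list, 3 had ratios as low as Eif3h or lower. Eif3i stood at 254 CPM in vehicle and 177 CPM in brequinar (1.44-fold lower, interval 1.40 to 1.48), Eif3k at 269 and 199.6 CPM (1.35-fold lower) and Eif3l at 292 and 217 CPM (1.34-fold lower). Eif3l is the gene whose annotated start, shown above, holds a pyrimidine stretch of 10 letters opening 7 bases before it. In Eif3k a stretch of 11 letters opens at base 14, and the table holds no entry for Eif3i. Eif3b and Eif3m, with log2 ratios of -0.07 and -0.17, also hold a run of 5 such letters that opens within 5 bases of the start. Whether these stretches bear on the ratios was not tested.

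The other eIF3 genes off the list lay nearer to their vehicle level. Eif3a stood at 649.7 and 632 CPM, Eif3b at 393 and 375 CPM, Eif3c at 542 and 503 CPM, Eif3g at 151 and 133 CPM, and Eif3m at 227 and 202 CPM. Eif3d, the subunit that can bind the cap, stood at 281 and 289 CPM and was the 1 eIF3 gene above 0, a sign that turned with scaling by total counts, with or without the 50 most abundant genes. Eif3j1 stood at 94.4 and 93.3 CPM, and its copy Eif3j2 at 3.25 and 2.99 CPM.

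Taken per kilobase of exon and set against the median eIF3 subunit of the same library, Eif3f went from 1.41 times that median in vehicle to 0.983 times in brequinar, and Eif3i from 0.880 to 0.724. Eif3c went from 1.98 to 2.17 and Eif3d from 0.724 to 0.882. Eif3e kept its place (0.671 and 0.668), and Eif3h remained the highest by this measure, at 3.33 and 2.99. The order of the subunits depends on the annotated exon length, 6719 bases for Eif3e and 1612 for Eif3h. In CPM not divided by length, Eif3a and Eif3c stood above Eif3h in both libraries.

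**Figure D4:**
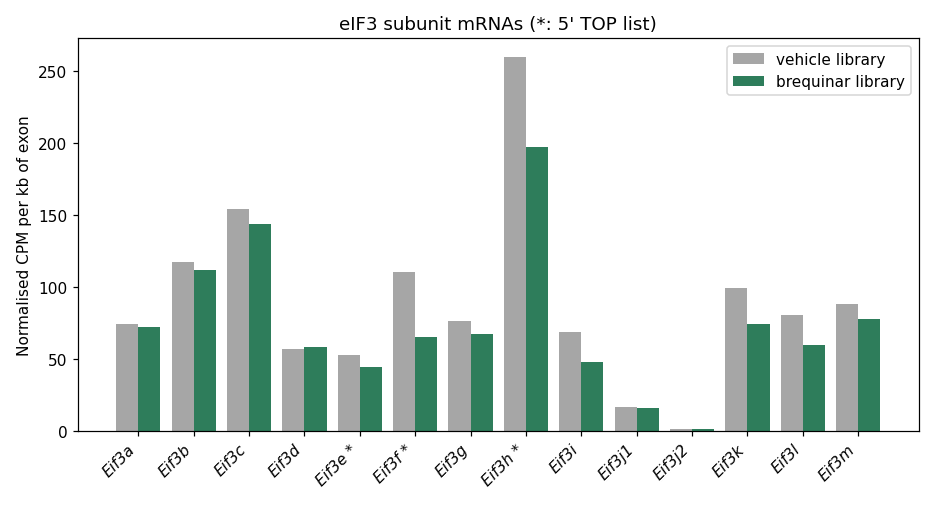
Normalised CPM per kilobase of exon (y axis, from 0) of the 14 measured eIF3 genes (x axis), in grey for the vehicle and in green for the brequinar library, 1 library each and so without error bars. Asterisks mark the 5′ TOP list. The gap between the bars is widest, as a ratio, for Eif3f, and the bars of Eif3a, Eif3b, Eif3d and Eif3j1 are nearly level.

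eIF2 brings the initiator tRNA, and eIF2B is its exchange factor, the target of the integrated stress response. Of the 9 measured genes, 6 had ratios above 0 (5 with scaling by total counts, by totals without the 50 most abundant genes or by the upper quartile, where Eif2b1 turned), with a median of 0.16. Eif2s1, the alpha subunit that stress kinases phosphorylate, stood at 189 CPM in vehicle and 227 CPM in brequinar (log2 ratio 0.27, ratio interval 1.17 to 1.24), and Eif2s2, the beta subunit, at 219 and 258 CPM (1.18-fold higher, interval 1.15 to 1.21).

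The 5 eIF2B genes did not share a direction. Eif2b2 stood at 64.2 and 52.4 CPM and Eif2b5, the catalytic subunit, at 83.4 and 74.0 CPM, both lower in brequinar. Eif2b3 stood at 36.0 and 40.9 CPM, Eif2b4 at 32.5 and 36.2 CPM and Eif2b1 at 49.8 and 50.2 CPM. The eIF2-independent tRNA carriers lay at opposite ends, Eif2a at 105 and 81.9 CPM (1.28-fold lower, interval 1.23 to 1.34) and Eif2d at 43.8 and 61.5 CPM (1.41-fold higher, interval 1.33 to 1.49).

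The 6 genes named after eIF1, eIF1A or eIF5, the factors of start codon selection, had a median log2 ratio of -0.06. Eif1, which keeps the scanning complex open, stood at 322 CPM in vehicle and 292 CPM in brequinar, and Eif5, the GTPase activator of eIF2, at 306 and 340 CPM. Eif1b stood at 60.8 and 66.3 CPM, Eif1a at 109 and 96.6 CPM, Eif1ax at 189 and 178 CPM, and Eif1ad at 100.3 and 97.2 CPM. Eif1ad shares 15.3% of its exon bases with Banf1 on the opposite strand.

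Factors of the later steps were near their vehicle level. Eif5b, the GTPase of subunit joining, stood at 201 and 185 CPM, and Eif6, which keeps the large subunit free, at 120 and 116 CPM. Eif5a, the hypusine-carrying factor that helps the ribosome past stalling sequences, stood at 1520 CPM in vehicle and 1442 CPM in brequinar. Its paralogue Eif5a2 was near the filter with 73 and 41 counts (1.48 and 0.883 CPM), and its ratio is correspondingly loose (1.67-fold lower, interval 1.13 to 2.51).

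Enzymes that modify elongation factors also carry Eef symbols. Eef2kmt, a lysine methyltransferase of eEF2, stood at 19.6 CPM in vehicle and 11.4 CPM in brequinar (1.72-fold lower, interval 1.55 to 1.92), the second lowest log2 ratio of all members (-0.78). It shares 17.6% of its exon bases with Alg1 on the opposite strand, and whether counting used the strand is not stated in those sources. Eef2k, the kinase that inhibits eEF2, stood at 179.8 and 136 CPM (1.32-fold lower, interval 1.28 to 1.36).

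The eEF1A methyltransferases Eef1akmt1 (34.7 and 31.2 CPM) and Eef1akmt2 (23.7 and 17.9 CPM) were lower in brequinar by less than 1.5-fold, and Eef1akmt3 had 0 and 1 counts. Eef1e1, which despite its name is a scaffold of the multi-tRNA synthetase complex, stood at 44.7 CPM in vehicle and 60.8 CPM in brequinar (1.36-fold higher, interval 1.29 to 1.44).

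A sequence rule gave a smaller contrast than the list from general knowledge. The RefSeq table held 47 of the 64 members, and no entry for Eef1d, Eef1g, Eif3e, Eif3h or Pabpc1 of the list. A run of 5 letters that are each C or T, read on the transcribed strand and with its first letter within 5 bases of an annotated start on either side (it may be part of a longer stretch), was found in 2 of 6 members of the list (Eef1a1 and Eif3f), in 10 of 40 other measured members, and in 31.6% of the 8690 measured genes with an entry. It was present in 26.4% of all 32851 windows of the table and in 49.2% of the ribosomal protein genes with an entry.

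The 12 measured members with such a run all had ratios below 0, with a median log2 ratio of -0.15. The 34 without one had a median of -0.09, with 22 below 0. With a run of 5 that begins with C and whose first letter lies anywhere from 5 bases before to 25 bases after the start, a rule chosen after the data were seen, 16 members qualified, with a median of -0.26 against -0.07 for the other 30. Of the 16, 15 lay below 0, and of the other 30, 19 did. This rule takes in Eef2, Eif4b and Eif3k, and also Eef1e1, which was higher in brequinar (log2 ratio 0.44). Such a run is held by 34.8% of the measured members with an entry and by 43.8% of the measured genes with one.

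Other genes of the pathway were read from lists. Among 11 poly(A)-binding and cap-proximal regulators none passed 2-fold, and the lowest were Pdcd4, an inhibitor of eIF4A (504 CPM in vehicle and 261 CPM in brequinar, log2 ratio -0.95), and Pabpc4, a second cytoplasmic poly(A)-binding protein (264 and 143 CPM, -0.88). Larp1, which binds 5′ TOP mRNAs, stood at 282 and 251 CPM. Of this list 4 genes (36.4%) were at least 1.5-fold lower and none was higher, against 12.7% of all measured genes in each direction.

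None of 13 genes listed for mTORC1 signalling and the kinases of translation passed 2-fold, with 8 below 0 and 5 above. At 1.5-fold, 1 was higher (Mlst8) and none lower, against 12.7% of all measured genes in each direction. Mlst8, a subunit of both mTOR complexes, stood at 39.9 CPM in vehicle and 64.9 CPM in brequinar, Akt1s1, an mTORC1 inhibitor, at 18.1 and 13.3 CPM, and Mtor itself at 52.7 and 42.3 CPM. Myc, a driver of translation factor genes, stood at 118 and 97.5 CPM. The 7 measured genes of termination and recycling had a median of -0.04, where the rescue factors Pelo (15.3 and 12.6 CPM) and Hbs1l (53.7 and 44.3 CPM) were the farthest from 0.

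Among 8 genes of hypusine and diphthamide synthesis, which modify eIF5A and eEF2, 6 lay below 0, and Dph2 (13.5 and 10.8 CPM) and Dhps (26.9 and 21.8 CPM) were the farthest. The 8 measured mitochondrial translation factors had a median of 0.00. Gfm2 (25.2 and 19.7 CPM) and Mtif2 (34.9 and 27.5 CPM) were the farthest, and none of either list reached 1.5-fold.

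Marker genes of several cell types differed between the libraries alongside these ratios. The 7 genes listed for leukaemia and myeloid cells, which are not all markers of early cells, went both ways. Mpo (5912 CPM in vehicle and 979 CPM in brequinar) and Kit (180.3 and 76.5 CPM) were at least 2-fold lower and Itgam (399 and 1234 CPM) at least 2-fold higher. Elane stood at 3098 and 1702 CPM, Ptprc at 286 and 538 CPM, Meis1 at 71.6 and 87.4 CPM and Hoxa9 at 238 and 231 CPM. All 10 markers of maturing neutrophils were at least 2-fold higher in brequinar, with summed levels of 1431 and 23730 CPM. Summed levels were 80.1 and 272 CPM for 10 erythroid markers (9 of 9 measured ones at least 2-fold higher), 596 and 775 CPM for 9 macrophage markers (6 of 8 measured ones at least 2-fold higher), 88.3 and 39.7 CPM for 6 B cell markers (2 of 4 measured ones at least 2-fold lower), and 22.8 and 8.72 CPM for 6 T and NK cell markers (the 1 measured, Nkg7, was at least 2-fold lower). Most of the macrophage sum came from Vcam1 (370 and 496 CPM) and Adgre1 (221 and 225 CPM), which did not reach 2-fold. No marker of these lists was at 0 in either library, and their part in the ratios of the factors was not tested.

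Near-identical copies limit the absolute level of some members. Reads that mapped to several places entered no gene's count, and Eef1a1, Eef1b2, Eef1g, Tpt1, Eif4a1 and Eif5a have processed pseudogenes or close copies, so an unknown share of their reads is missing. Of 6 processed pseudogenes that carry a member's name in the table, the highest was Eif4a-ps4, at 37.9 CPM in vehicle and 32.5 CPM in brequinar. Without 12 members of this kind the 7 remaining genes of the 5′ TOP list had a median log2 ratio of -0.52 and the 41 others -0.05.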

How the data were processed

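RNA of GFP-sorted leukaemia cells was poly(A)-selected and read as paired ends of 101 bases from strand-preserving libraries, per the labels' protocols. The deposited values are whole-number read counts per gene, not normalised. STAR 2.4.2a, Picard 1.99 and 2.2.4 and build mm10 are named per the submitters' processing notes. Which program counted reads, with which annotation and strand setting, is not given in the sources used here. Column names gave the sample of each of the 2 columns. The 4 closing lines that name no gene (21.6% of reads in vehicle, 20.2% in brequinar) were left out. Symbols, coordinates and exon lengths came from GENCODE mouse release 21 (GRCm38, the assembly mm10 names), by identifier without version, with a symbol for 44585 of 45318.

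CPM were computed from the counts after TMM scaling (factors 1.03 and 0.969) with edgeR 4.0.16 in R 4.3.3. The log2 ratio of brequinar over vehicle used a prior count of 2, and folds use none. The filter was a mean of 1 CPM or more, and a call needed 2-fold. Intervals are exact (Clopper-Pearson) at 95%. Intervals and floors cover counting error only, and PCR copies, which no molecular identifier marks, are not independent molecules. Every member could be named, as could the 2 genes of each other list farthest from 0, besides Mtor, Larp1 and Myc. Marker lists of other cells are given by counts and sums. The 5 further genes of the leukaemia and myeloid list, and Vcam1 and Adgre1, were named after their values were seen. Members and lists were chosen with earlier results of these data known. Alternatives covered scaling (including size factors from DESeq2 1.42.0), filters, prior counts, summaries and 5′ TOP rules. The rest used Python 3.11.15 with pandas 2.3.3, numpy 2.4.6, statsmodels 0.14.6, scipy 1.17.1 and matplotlib 3.10.9, and the procedure was tested on simulated data. These held counting error only, so they say nothing about the spread between animals. The 2-fold call found 100 of 100 genes simulated at 4-fold and 0 of 100 simulated at 1.5-fold.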

Additional observations from a re-analysis of the deposited data

How the results depend on the processing

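No paired analysis was possible because each group holds 1 library. All 11 genes of the 5′ TOP list kept log2 ratios below 0 under each alternative scaling, filter, prior count and the length and GC correction. The median of the list, -0.66, moved to -0.75 with total counts, -0.73 with totals without the 50 most abundant genes, -0.58 as a mean and -0.52 without members with near-identical copies. With members picked by a pyrimidine stretch near the annotated start it was -0.15, and -0.26 with the wider window, which was added after seeing the data. The median of all members, -0.12, moved to -0.21 with total counts, -0.20 without the 50 most abundant genes and -0.17 as a mean. That of the other members, -0.08, moved to -0.17, to -0.16 and, with the length and GC correction (lowess, span 0.3), to -0.016. The difference between the list and the others, -0.58, was -0.51 between means, -0.47 without near-identical copies, -0.64 after the length and GC correction, -0.053 with the stretch near the start and -0.19 with the wider window. A scaling shifts all ratios alike and so cannot move this difference. Members past the threshold were 1 with total counts (Pabpc1) and 8 at 1.5-fold. The summed level of the list was 23319 and 13910 CPM with total counts. The signs of Eif2b1 and Eif3d turned with total counts, with or without the 50 most abundant genes, that of Eif2b1 also with the upper quartile, and those of Eef1akmt1, Eefsec, Eif3g, Eif4a3, Eif5a and Eif6 with the length and GC correction. A value is given as moved where it differed by over 0.04 on the log2 scale, the typical counting error of a member, and the causes were not tested. Counting error was small for all but Eif5a2 and Eif3j2, while the spread between animals is unknown.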
